A study of Homo sapiens with 3 samples.

Results

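From eicosanoid metabolism, 10 genes were followed through 3 RNA-seq libraries of TE5, a human esophageal squamous cell carcinoma line. They are the phospholipases PLA2G4C and PLA2G4A, the lipoxygenases ALOXE3, ALOX12B and ALOX15B, the cyclooxygenases PTGS1 and PTGS2, the synthase PTGES, the reductase PTGR1 and the hydrolase LTA4H. The set is a list of gene names, 10 of the 52992 genes with a total in the tables, and it holds 70 annotated transcripts. It was drawn up with the knockdown contrast of these libraries already known, so the differences of these 10 genes from the control are given as a description and carry no test of their own.

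One library came from TE5 cells that were transfected with a scrambled control (scramble), and 2 from TE5 cells transfected with short hairpin RNA against KLF5, a Krüppel-like DNA-binding factor active in the dividing layers of epithelia (shKLF5 libraries 1 and 2). All were harvested after 48 h. The labels do not say whether libraries 1 and 2 are separate hairpins or separate cultures, so their spread may be technical, and the control has 1 library. Estimated counts totalled 33448976 in scramble, 33544752 in library 1 and 32720563 in library 2. KLF5 itself had 8402 counts in scramble against 1333 and 1531. The summed TPM (the transcript share scaled for length) of 8 squamous identity markers was 3680, 1190 and 743, with each marker below scramble in either shKLF5 library after TMM scaling, a step that sets the libraries to a common level. The TMM factors were 0.82 for scramble, 1.11 for library 1 and 1.1 for library 2. Counts printed below are not scaled, so equal counts stand lower in the shKLF5 libraries than in scramble after scaling. Markers of other cell types summed to less, though not evenly over the libraries. Fewer genes were detected in scramble in general. Genes with at least 10 counts numbered 16920 in scramble, 19304 in library 1 and 19422 in library 2. The part of this in the marker values was not tested. The 9 leukocyte markers summed to 4.72, 12.3 and 17.7 TPM, with 3, 1 and 0 of them at 0 and 5 of the 6 tested higher by value in both shKLF5 libraries. CD68 made up 3.77, 8.65 and 11.7 TPM of this, ITGAM had 8, 72 and 108 counts and CSF1R 16, 56 and 127, while TYROBP, a leukocyte adaptor, had 0, 0 and 1. The 8 fibroblast markers summed to 17.6, 27.0 and 16.2 TPM, mostly COL1A1, which had 1291, 2195 and 1495 counts, with 0 of them at 0. The 8 mast cell and platelet markers summed to 2.32, 6.24 and 2.86 TPM, mostly ITGA2B at 2.29, 5.76 and 2.23 TPM, with 6, 1 and 2 of them at 0 and the platelet chemokine PF4 at 0 in each library. The 5 endothelial markers summed to 0.465, 1.43 and 1.94 TPM, with 2, 0 and 0 at 0 and all 4 tested higher by value in both shKLF5 libraries. The part of these shifts in the values below was not tested.

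Eicosanoids are signalling lipids made from arachidonic acid. A phospholipase frees the fatty acid from membranes, cyclooxygenases turn it into the precursor of prostaglandins, and lipoxygenases into hydroperoxides that lead to leukotrienes and related lipids. In squamous epithelia some lipoxygenases act instead on ceramide-bound linoleic acid, a step in building the water barrier, while PTGS2 is the cyclooxygenase that inflammatory and growth signals induce, often in esophageal squamous tumours.

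Several of the 10 genes share a neighbourhood, which the list did not use. ALOX15B, ALOX12B and ALOXE3 lie in a row on chromosome 17, with 23.5 kb between the first pair and 8.18 kb between the second. PTGS2 and PLA2G4A lie 149.0 kb apart on chromosome 1 and are transcribed away from each other. RefSeq (GRCh38.p14) promoter windows were matched for 8 of the 10 genes, 11 windows in all. The 250 bases before the start are shown for this chromosome 1 pair, whose members took different values in the shKLF5 libraries, and for PTGES, the synthase downstream of PTGS2. Each is written 5′ to 3′ on the gene's own strand, with matches to the searched letters in capitals.
PTGS2 (chr1:186680424-186680673, minus strand): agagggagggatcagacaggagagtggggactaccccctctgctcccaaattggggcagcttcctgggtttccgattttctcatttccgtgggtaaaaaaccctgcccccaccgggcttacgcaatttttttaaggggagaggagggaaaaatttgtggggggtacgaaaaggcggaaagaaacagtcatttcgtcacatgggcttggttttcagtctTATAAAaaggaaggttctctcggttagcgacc
PLA2G4A (chr1:186828699-186828948, plus strand): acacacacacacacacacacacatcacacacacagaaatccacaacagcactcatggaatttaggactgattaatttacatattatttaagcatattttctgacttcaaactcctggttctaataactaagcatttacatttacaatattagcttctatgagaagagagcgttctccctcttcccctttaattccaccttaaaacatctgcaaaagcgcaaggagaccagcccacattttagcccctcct
PTGES (chr9:129753043-129753292, minus strand): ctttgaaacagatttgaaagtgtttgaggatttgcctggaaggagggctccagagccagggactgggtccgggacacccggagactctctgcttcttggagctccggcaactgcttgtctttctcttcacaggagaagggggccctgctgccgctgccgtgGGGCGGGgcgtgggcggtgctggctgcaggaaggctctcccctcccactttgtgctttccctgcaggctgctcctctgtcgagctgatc

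A small set of letter patterns was searched on both strands: GGGCGGG and CCACCC, the GC box and CACCC box that KLF and SP proteins are known to bind, TATAAA of the TATA box, TGANTCA, a loose form of the AP-1 site, and TGACNNNGC of the antioxidant response element. None of these patterns overlaps another in the windows printed. Of all 35116 promoter windows of this length, 31.5% held GGGCGGG, 31.3% CCACCC, 10.7% TATAAA, 6.57% TGANTCA and 10.9% TGACNNNGC. The PTGS2 window held TATAAA beginning 32 bases before the start and none of the other patterns. PTGES held GGGCGGG beginning 89 bases before the start. PLA2G4A held none of the patterns, and 38.8% of its window was G or C, against 50.4% for PTGS2 and 61.2% for PTGES. CCACCC stood in 1 window each of ALOX12B and LTA4H and in both windows of PTGS1, of which 1 also held TGACNNNGC and TATAAA, beginning 157 and 208 bases before its start. PTGR1 held none of the patterns. At ALOXE3, 1 of 3 windows held TGACNNNGC and, at 2 places, TGANTCA, the latter in this run of 20 bases at chr17:8118501-8118520 on the minus strand, which spans the first base of transcript ALOXE3-203 (8118513) and is shown since that transcript is discussed below.
ALOXE3: TGATTCAcacggaTGATTCA

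Taken by sign, the 10 genes split evenly. After TMM scaling 4 were higher than scramble in both shKLF5 libraries (PLA2G4C, ALOXE3, PTGS1 and PTGS2), 4 were lower in both (ALOX15B, PTGES, PTGR1 and LTA4H), and PLA2G4A and ALOX12B took opposite signs. With library size alone 4 were higher in both and 2 lower. Over the 20629 genes tested, 37.9% were higher in both, 36.5% lower in both and 25.4% opposite after TMM scaling. With library size alone 65.2% of them were higher in both and 12.5% lower. The median fitted log2 fold change of the 10 was -0.22, with 0.11 in library 1 and -0.55 in library 2, beside 0.04 over all genes tested. All 10 passed the filter on low counts. By edgeR's quasi-likelihood test 0 of the 10 reached a Benjamini-Hochberg adjusted p under 0.05, where 0.0% of all genes tested did. At an unadjusted p under 0.05 there were 3 of the 10, where 9.18% of all genes stood, and DESeq2 called 1, PLA2G4C, where it called 0.562% of genes and gave 3 of the 10 no adjusted p. edgeR's legacy fit called 0 of the 10, where it called 0.102% of genes. Since the list was chosen on this contrast, nothing is read from these counts. Both shKLF5 libraries are set against the same scramble library, so their signs are not independent. In bulk RNA, fewer cells that express a gene and less RNA per cell cannot be told apart.

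**Figure D1:**
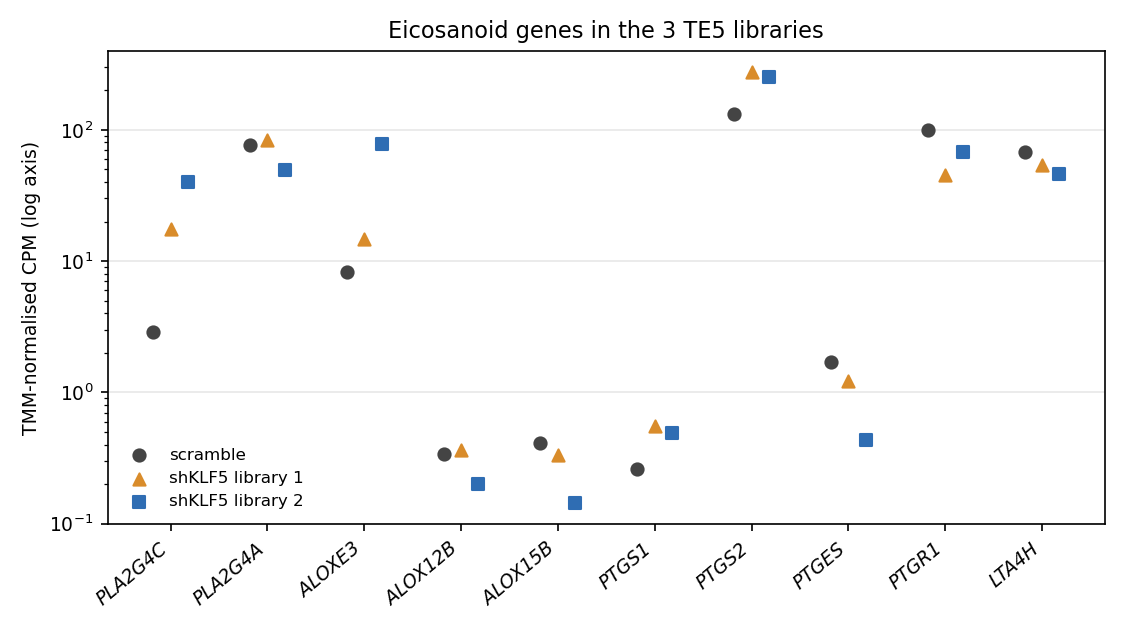
TMM-normalised CPM (counts scaled to library size, log axis) of the 10 genes in scramble (circles), shKLF5 library 1 (triangles) and shKLF5 library 2 (squares), 1 point per library. PLA2G4C stood at 2.86, 17.7 and 39.9 CPM and PTGS2 at 131.0, 274.0 and 251.0 CPM, while ALOX12B, ALOX15B and PTGS1 stayed below 1 CPM.

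Among the enzymes that release arachidonic acid, PLA2G4C was much higher in both shKLF5 libraries and PLA2G4A was not. PLA2G4C (ENSG00000105499; GRCh38 chromosome 19, 48047843 to 48110817) encodes a cytosolic phospholipase that, unlike its relatives, needs no calcium and is anchored to membranes by a lipid tail. Scramble gave it 76 estimated counts, library 1 636 and library 2 1389. This is 2.86 CPM against 28.8 ± 15.7 CPM (SD, n = 2), 6.21-fold higher in library 1 and 14-fold higher in library 2. The fitted log2 fold change was 3.33 (SE 0.64), and the per-length level was 2.75, 21.3 and 60.8 TPM. The lower of the shKLF5 values was thus well above scramble, and the libraries differed from each other by 2.25-fold. PLA2G4C was the 1 gene of the 10 at least 2-fold higher in both libraries, which held for 8.26% of all genes tested.

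PLA2G4A (ENSG00000116711; chromosome 1, 186828953 to 186988981) encodes the calcium-activated phospholipase that supplies arachidonic acid to both branches of the pathway. It had 2017, 2986 and 1728 counts in scramble and libraries 1 and 2, or 75.9 CPM against 66.5 ± 23.8 CPM (SD, n = 2). The scramble value lay between the shKLF5 values of 83.3 and 49.7 CPM. Its fitted log2 fold change was -0.19 (SE 0.41), and its sign depended on the scaling, at 0.24 with library size alone. The median over all genes tested was then 0.467. In scramble PLA2G4A stood at 24.2 TPM, above the 2.75 TPM of PLA2G4C, and in library 2 the order was the other way, with 20.7 against 60.8 TPM.

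The transcripts counted for PLA2G4C were mixed. Of its 24 annotated transcripts 8 are protein coding, and these held 44, 447 and 713 of the counts in scramble and libraries 1 and 2. That is 57.6% (95% Wilson interval 46.7 to 68.4), 70.2% (66.6 to 73.7) and 51.4% (48.7 to 54.0) of the gene, where intervals cover counting error only and not the division of reads between transcripts. The long coding transcripts PLA2G4C-222 and PLA2G4C-219 had 24 and 14 counts in scramble, 237 and 157 in library 1, and 327 and 237 in library 2. Coding transcripts were therefore higher in both shKLF5 libraries as well. Retained-intron transcripts took 23.7%, 13.3% and 22.9%, and the number of the 24 transcripts above 0 was 12, 17 and 22. As a share of TPM, which gives short transcripts more weight, coding transcripts made up 25.5%, 55.3% and 33.6%. Over the 20592 genes tested that are not mitochondrial, the share of counts on coding transcripts was 84.9%, 84.4% and 80.9%, also lowest in library 2, and its part in the PLA2G4C value was not tested. With protein-coding transcripts alone the fitted log2 fold change of PLA2G4C was 3.45. Of the 31-base windows of PLA2G4C transcripts 8.08% also occurred in other genes, 245 of these 557 windows in PLA2G4C-AS1, an antisense gene that overlaps it. PLA2G4C-AS1 had 1, 12 and 16 counts, few beside those of PLA2G4C. The use of strand is not given in the sources used here, so reads of the pair cannot be told apart where they overlap.

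**Figure D2:**
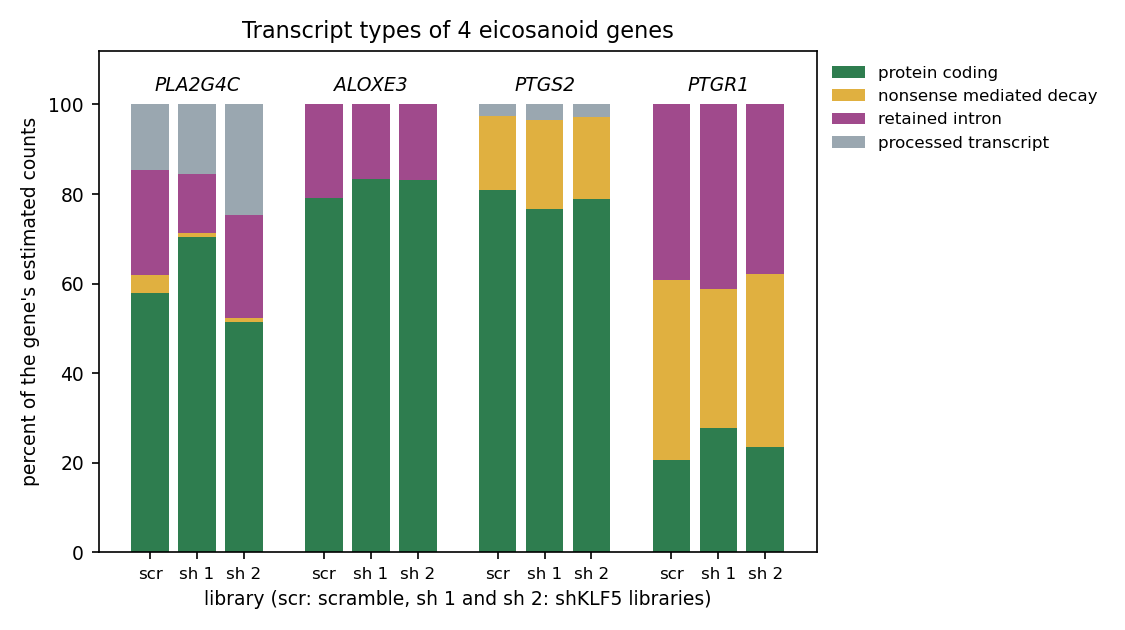
Share of each gene's estimated counts (percent, vertical axis) on annotated transcript types, stacked, for PLA2G4C, ALOXE3, PTGS2 and PTGR1 in scramble (scr) and shKLF5 libraries 1 and 2 (sh 1, sh 2). Coding transcripts held 57.6%, 70.2% and 51.4% of PLA2G4C, and 20.6%, 27.9% and 23.6% of PTGR1.

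Among the lipoxygenases, ALOXE3 was the only member of the chromosome 17 row above 1 CPM in these libraries. ALOXE3 (ENSG00000179148; chromosome 17, 8095900 to 8119047) encodes an atypical enzyme that converts the hydroperoxide made by ALOX12B into an epoxyalcohol in the barrier lipids of the epidermis. It had 220, 523 and 2707 counts in scramble and libraries 1 and 2, or 8.28 CPM against 46.2 ± 44.7 CPM (SD, n = 2). Library 2 stood 9.41-fold above scramble and library 1 1.76-fold, so the gap between the shKLF5 libraries, 5.33-fold, was wider than the difference of library 1 from scramble. The fit gave a log2 fold change of 2.48 (SE 0.91), between the single-library values of 0.81 and 3.22. ALOXE3 was the 1 gene of the 10 whose shKLF5 libraries lay at least 4-fold apart, which held for 2.63% of all genes tested.

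The ALOXE3 counts came from several transcripts that differed by unequal amounts. ALOXE3-203, which begins at 8118513, had 128, 258 and 1125 counts, and ALOXE3-202, which begins at 8118489, had 40, 158 and 1092. ALOXE3-202 thus took a share of 18.3%, 30.2% and 40.3% of the gene's counts. These transcripts begin and end close together, so this share rests on the estimated division of reads between them, whose error was not assessed. ALOXE3-201, from a start upstream of both, took 2.59%, 3.76% and 1.19% of the counts. The retained-intron transcript ALOXE3-204 had 46, 87 and 458 counts, and 58.2%, 51.2% and 51.8% of the gene's TPM. The coding share as a whole was 78.9% (95% Wilson interval 73.2 to 83.9), 83.3% (79.9 to 86.3) and 83.1% (81.6 to 84.4), intervals that overlap, and 41.8%, 48.8% and 48.2% as a share of TPM. None of the 31-base windows of ALOXE3 transcripts was found in a transcript of another gene.

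The other members of the row were barely detected. ALOX12B (ENSG00000179477; chromosome 17, 8072636 to 8087716), the R-specific lipoxygenase that acts ahead of ALOXE3, had 9, 13 and 7 counts in scramble and libraries 1 and 2. Their exact Poisson 95% intervals, which cover counting error only, were 4.12 to 17.1, 6.92 to 22.2 and 2.81 to 14.4, and they overlap. ALOX15B (ENSG00000179593; chromosome 17, 8039017 to 8049134), which oxygenates arachidonic acid at the carbon used by ALOX15, had 11, 12 and 5 counts, with intervals of 5.49 to 19.7, 6.20 to 21.0 and 1.62 to 11.7. No difference of ALOX12B or ALOX15B between the libraries was detectable at this depth. Of the ALOX12B windows 21.2% were shared with the antisense gene AC129492.1, which had 0, 6 and 3 counts. Other lipoxygenases were also low: ALOX12 had 75, 96 and 123 counts, ALOX5 28, 32 and 24, and ALOX15 9, 12 and 11.

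The neighbours of ALOXE3 did not take 1 direction. Of the 19 tested genes within 200 kb of it, 8 were higher in both shKLF5 libraries and 8 lower in both. The nearest by start, HES7, a transcriptional repressor whose start lies 5.04 kb upstream, had 9, 43 and 88 counts and log2 fold changes of 1.66 and 2.70. KCNAB3, a potassium channel subunit 189 kb downstream, had 142, 210 and 958 counts, at 0.13 and 2.35. As in ALOXE3, library 2 was the higher in both of these genes, and KCNAB3 in library 1 was near scramble. LINC00324, a noncoding gene 105 kb upstream, was also higher in library 2, at 0.96 in library 1 and 2.31 in library 2. Some other genes nearer to ALOXE3 than KCNAB3 went otherwise. In libraries 1 and 2, PER1 stood at 1.01 and 0.61, VAMP2 at 0.61 and 0.61, and TMEM107 at -0.18 and -0.96.

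**Figure D3:**
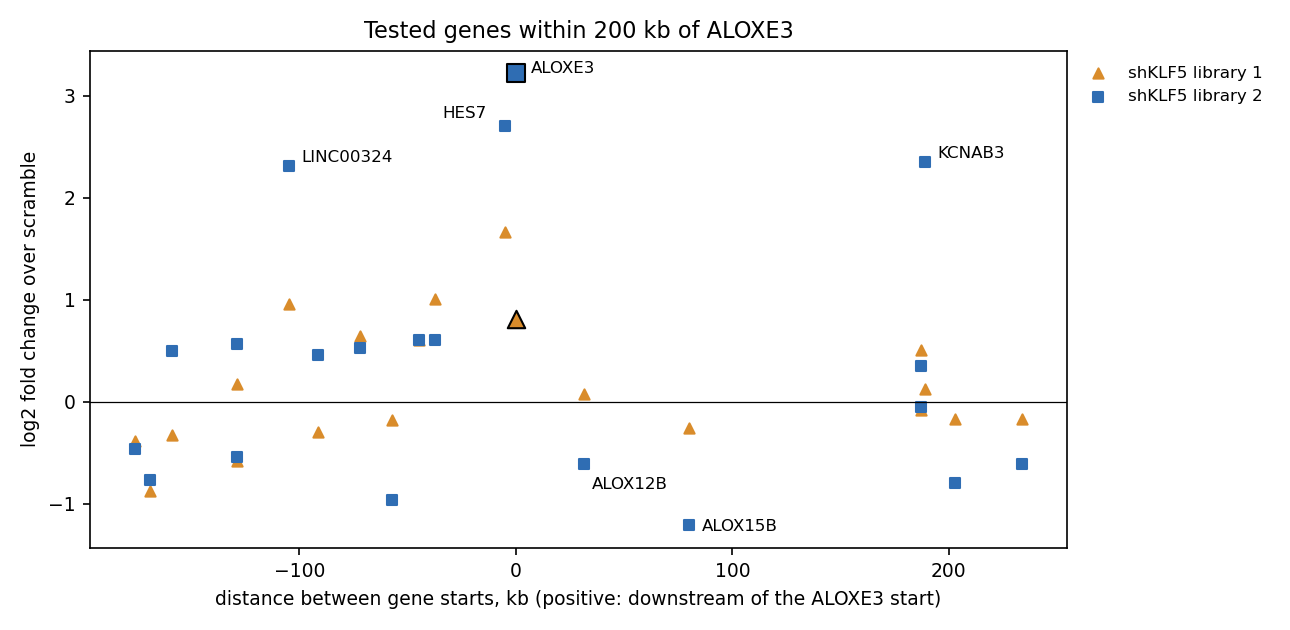
Log2 fold change over scramble of the tested genes within 200 kb of ALOXE3 against the distance between gene starts in kb, for shKLF5 library 1 (triangles) and library 2 (squares), with ALOXE3 outlined at 0. ALOXE3, HES7, KCNAB3 and LINC00324 stood highest in library 2, at 3.22, 2.70, 2.35 and 2.31, and ALOX12B and ALOX15B lay below 0 there, at -0.61 and -1.21.

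Of the cyclooxygenases, PTGS2 was abundant and about 2-fold higher in both shKLF5 libraries, and PTGS1 was near the floor. PTGS2 (ENSG00000073756; chromosome 1, 186671791 to 186680427) encodes the inducible enzyme COX-2. Its counts were 3489, 9835 and 8727 in scramble and the shKLF5 libraries, or 131.0 CPM against 263.0 ± 16.6 CPM (SD, n = 2). The folds were 2.09 and 1.91, and the shKLF5 libraries lay close together, 1.09-fold apart, and apart from scramble. The fitted log2 fold change was 1.0 (SE 0.36), and over the alternative settings and single libraries it ran from 0.94 to 1.53. In TPM PTGS2 stood at 34.6, 113.0 and 88.0, and among the 10 genes it passed PTGR1 to become the highest in both shKLF5 libraries.

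The single annotated coding transcript of PTGS2 carried most of its counts, namely 2821, 7538 and 6883. Its share was 80.9%, 76.6% and 78.9% (60.6%, 51.5% and 57.8% of TPM), and the nonsense-mediated decay transcript PTGS2-204 held most of the rest, with 577, 1955 and 1593 counts. PTGS2-205, a short noncoding transcript, was given 106 counts in library 1 and 0 in scramble and library 2. PACERR, a noncoding RNA that starts 0.195 kb upstream of PTGS2 on the other strand, had 9, 23 and 17 counts. None of the 31-base windows of PTGS2 occurred in another gene's transcripts.

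PTGS1 (ENSG00000095303; chromosome 9, 122370530 to 122395703), which encodes the constitutive cyclooxygenase of platelets and stomach, had 7, 20 and 17 counts. The Poisson intervals were 2.81 to 14.4 in scramble, 12.2 to 30.9 in library 1 and 9.90 to 27.2 in library 2, and they overlap. In TPM it made up 0.168%, 0.291% and 0.239% of PTGS1 and PTGS2 together, so PTGS2 was nearly all of the cyclooxygenase mRNA in each library.

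PTGES, which turns the cyclooxygenase product into prostaglandin E2 and is often induced along with PTGS2, was low and did not follow it. PTGES (ENSG00000148344; chromosome 9, 129738331 to 129753047) was given counts of 45, 44 and 15 in scramble and the shKLF5 libraries, or 1.69 CPM against 0.83 ± 0.563 CPM (SD, n = 2). Library 2 stood apart, with a Poisson interval of 8.40 to 24.7 against 32.8 to 60.2 in scramble, while the interval of library 1, 32.0 to 59.1, overlapped that of scramble. The fitted log2 fold change was -1.02 (SE 0.72). The coding transcript PTGES-201 had 25, 25 and 0 counts, and the noncoding PTGES-202 had 20, 19 and 15. The other enzymes with prostaglandin E synthase activity were far more abundant per length: PTGES2, of Golgi membranes, had 52.7, 74.1 and 63.0 TPM, and PTGES3, better known as the HSP90 co-chaperone p23, had 205, 157 and 172 TPM, against 0.889, 0.889 and 0.276 TPM for PTGES. Of the PTGES windows of 31 bases 7.67% also occurred in other genes.

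PTGR1, a reductase that inactivates prostaglandins and leukotriene B4, stood below scramble in both shKLF5 libraries. PTGR1 (ENSG00000106853; chromosome 9, 111549722 to 111599893) was given counts of 2631, 1616 and 2342, or 99.0 CPM against 56.2 ± 15.7 CPM (SD, n = 2). The log2 fold change was -0.82 (SE 0.38), and here library 1 lay farther from scramble, at -1.13 against -0.55. Most of the PTGR1 counts were not on coding transcripts. Before scaling, coding transcripts had 541, 450 and 554 counts, while the nonsense-mediated decay and retained-intron transcripts together had 2090, 1166 and 1788. After TMM scaling the fit with protein-coding transcripts alone was also below scramble, at a log2 fold change of -0.38. Of the 31-base windows of PTGR1 9.52% also occurred in other genes. ZNF483, a zinc finger gene on the other strand that overlaps PTGR1, had 270, 239 and 502 counts.

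LTA4H, the hydrolase that makes leukotriene B4, differed little between the libraries. LTA4H (ENSG00000111144; chromosome 12, 96000828 to 96043520) had 1798, 1937 and 1614 counts in scramble and libraries 1 and 2, or 67.6 CPM against 50.2 ± 5.40 CPM (SD, n = 2). The log2 fold change was -0.43 (SE 0.36) after TMM scaling, where the median over all genes tested was 0.039. With library size alone it was 0.00, where that median was 0.467. Whether LTA4H lay below scramble thus rested on the scaling, but it lay below the median gene in both. Its coding share was 84.5% (95% Wilson interval 82.7 to 86.1), 79.8% (78.0 to 81.5) and 78.7% (76.6 to 80.6). Of its 31-base windows 8.94% also occurred in other genes. LTA4H acts on the product of ALOX5, and the ALOX5 partner ALOX5AP had 0, 2 and 12 counts.

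**Figure D4:**
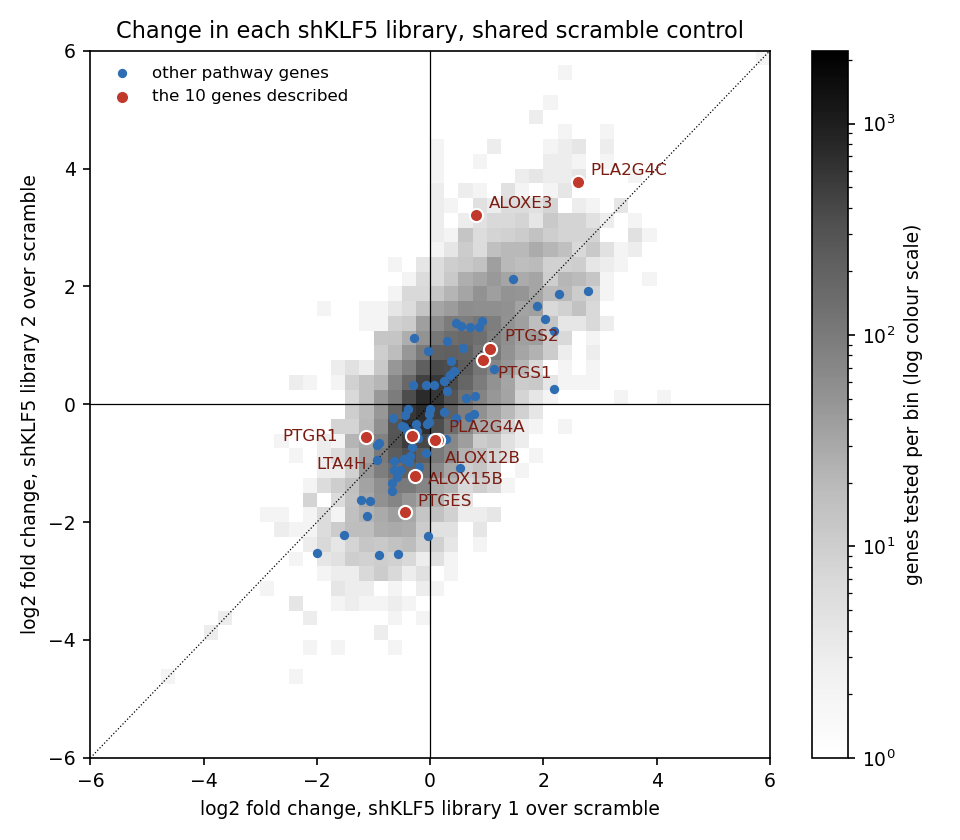
Log2 fold change over scramble in shKLF5 library 1 (horizontal) and library 2 (vertical) for the 10 genes (red, labelled), 71 other tested pathway genes (blue) and all 20629 genes tested (grey, genes per bin on a log colour scale), with the line of equal change dotted. PTGS2, at 1.06 and 0.94, lies near that line. PLA2G4C, at 2.61 and 3.78, lies above it, and ALOXE3, at 0.81 and 3.22, lies farther above it.

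The rest of the pathway was read from 8 lists by role, which hold 92 genes outside the 10, of which 71 passed the filter on low counts. Over all of them 23 (32.4%) were higher in both shKLF5 libraries and 36 (50.7%) lower in both, where 37.9% and 36.5% of all genes tested were. Their median log2 fold change was -0.15, beside 0.04 over all genes tested. The counts turned with the scaling, which also moved the shares over all genes. With library size alone 37 of the 71 were higher in both and 17 lower. Over all genes tested 65.2% were then higher in both and 12.5% lower, with a median of 0.467. These shares also stand behind the counts by list below. By edgeR's quasi-likelihood test 0 of the 71 reached an adjusted p under 0.05, as did 0 by DESeq2, which gave 12 of the 71 no adjusted p and called 0.562% of all genes. Of the 71, 14 had an unadjusted p under 0.05, 5 higher and 9 lower. The corresponding shares over all genes tested were 5.68% higher and 3.5% lower. No gene of these 8 lists, here or in the paragraphs below, passed the test over all genes.

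Among the other phospholipases and lipases 10 of 17 tested were higher by value in both libraries and 6 lower, or 12 and 4 with library size alone. Several of the 10 were near the floor, below 1 CPM in each library. Among these, PLA2G2F had 0, 13 and 6 counts, PLA2G4E 2, 16 and 13, and PLA2R1 3, 8 and 13. MGLL, which breaks down the endocannabinoid 2-AG to arachidonic acid, had 60, 228 and 350 counts and stood at 1.86 on the log2 scale (SE 0.57, adjusted p = 0.474 by edgeR). PLA2G6, a calcium-independent phospholipase, had 660, 1221 and 2256 counts. PLA2G4B, a relative of PLA2G4A and PLA2G4C, went the other way, at 419, 239 and 176 counts and a fitted log2 value of -1.43 (SE 0.44, adjusted p = 0.474 by edgeR), as did PLA2G4F, with 52, 16 and 10 counts. PLA2G3, a secreted phospholipase, had 502, 455 and 111 counts. The cytosolic phospholipase family thus did not take 1 direction.

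Of 9 tested prostanoid synthases and related reductases 8 had values below scramble in both shKLF5 libraries, where 36.5% of all genes tested did. None, 0 of 9, stood above it in both, and their median was -0.78 on the log2 scale. Some lay close to scramble, such as PTGES2 at -0.02 and -0.17. With library size alone 6 were lower and 2 higher, and the median was -0.35. AKR1C3, a prostaglandin F synthase, had 3182, 1986 and 1123 counts and stood at -1.45 (SE 0.41, adjusted p = 0.474 by edgeR), CBR3, a carbonyl reductase, had 341, 158 and 95 counts and PRXL2B, another prostaglandin F synthase, 750, 540 and 164. AKR1C3 shares sequence with other AKR1C genes, so its counts are uncertain. The exporters ABCC4, which carries prostaglandin E2, and ABCC1, which carries leukotriene C4, had 1187, 832 and 809 counts and 12459, 7980 and 5233 counts. HPGD, the main enzyme of prostaglandin breakdown, had 7, 7 and 4.

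Among the receptors 8 of 15 passed the filter, of which 5 were higher by value in both libraries and 2 lower, or 6 and 0 with library size alone. Of the 5, TBXA2R had 1, 14 and 6 counts, PTGIR 7, 16 and 10, and PTGER3 13, 32 and 19, all below 1 CPM. PTGER4, a prostaglandin E2 receptor, had 55 counts in scramble against 309 and 199, or 1.79 on the log2 scale (SE 0.57, adjusted p = 0.474 by edgeR). The leukotriene B4 receptor LTB4R was the most abundant by count, with 2495, 2122 and 2766, or 93.8, 59.2 and 79.6 CPM. LTB4R2 had 521, 513 and 598 counts, or 19.6, 14.3 and 17.2 CPM. These were the 2 receptors lower in both libraries after TMM scaling. Of 7 genes listed for activating fatty acids and returning them to membranes 6 were lower in both (1 with library size alone). LPCAT4, at -0.96 (SE 0.41, adjusted p = 0.541 by edgeR), was among them. In the barrier lipid list 5 of 14 were higher and 7 lower in both, or 8 and 2 with library size alone. ABCA12, the ceramide transporter that acts in the same barrier as ALOXE3, had 106, 209 and 351 counts, while ELOVL4, which makes its very long fatty acids, had 516, 678 and 141. In the epoxide branch EPHX1, the microsomal epoxide hydrolase, had 13879, 11774 and 6551 counts.

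**Figure D5:**
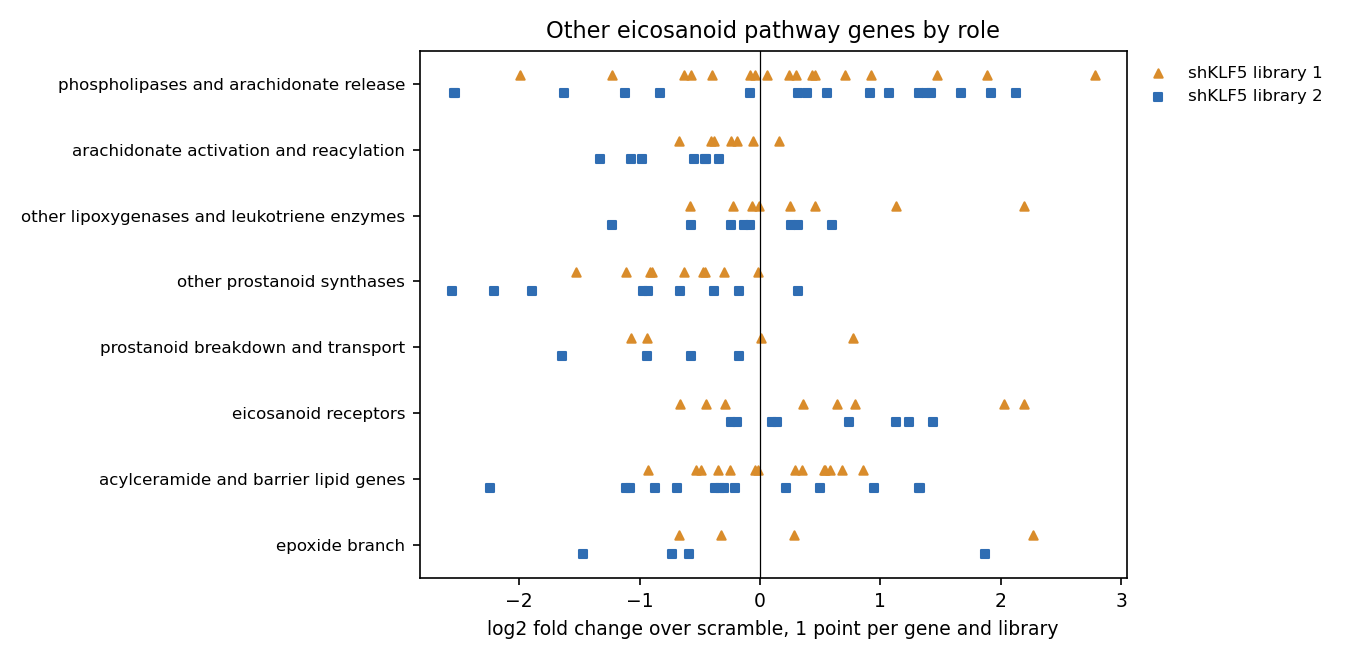
Log2 fold change over scramble (horizontal axis) of the tested genes in 8 role lists outside the 10 genes, 1 point per gene in shKLF5 library 1 (triangles) and library 2 (squares). Of 9 prostanoid synthases 8 lie below 0 in both libraries, and of 17 phospholipases 10 lie above 0 in both, after TMM scaling. Of all genes tested 36.5% lie below 0 in both and 37.9% above. Some points rest on few counts.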

How the data were processed

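RNA-seq was measured in 1 scramble and 2 shKLF5 libraries of TE5 cells, grouped by the labels. The authors deposited 1 table per library with kallisto's columns, and the submitters' processing notes list kallisto, DESeq2 and hg19 with no version. The deposited estimated counts are per transcript and not normalised, per the file headers, and the deposited TPM values are scaled by effective length to a common sum, per the file headers. Which transcript set was indexed, and whether strand was used, is not given in the sources used here.

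Of 196354 transcripts, 92.6% were matched by identifier to GENCODE 29 (GRCh38, whose coordinates are printed); the rest held 3.05% to 3.42% of counts and were left out. Counts were summed per gene and rounded. The test was run in R 4.3.3 by edgeR 4.0.16 (filterByExpr, then TMM and a quasi-likelihood F test of shKLF5 against scramble, Benjamini-Hochberg over 20629 genes, threshold 0.05), with 1 residual degree of freedom. Scramble, with its 1 library, is taken to vary as the shKLF5 libraries do. SE is the log2 fold change over the square root of F. Log2 fold changes of single libraries used a prior count of 2. The code was tested on simulated data. Alternatives, among them DESeq2 1.42.0 and limma 3.58.1, are given in the closing section.

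The 10 genes and the 8 role lists were chosen with earlier results of these data known. Named pathway genes are up to 4 of each list with a mean CPM of at least 1 and the smallest p, and genes close in sequence, function or position to the 10. TYROBP, PF4, CD68, ITGAM, CSF1R, COL1A1, ITGA2B, ALOX5AP, HPGD and ELOVL4 were named after their values were seen. So were PLA2G2F, PLA2G4E, PLA2R1, TBXA2R, PTGIR and PTGER3. Among the neighbours of ALOXE3, KCNAB3, LINC00324, PER1, VAMP2 and TMEM107 were also named after their values were seen. Shared sequence was counted as 31-base windows of GENCODE transcripts also found in another gene.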

Additional observations from a re-analysis of the deposited data

How the results depend on the processing

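The control is 1 library, and no setting replaces it. No paired analysis was possible because scramble carries no replicate number to match with shKLF5. Over all genes, edgeR's legacy fit passed 21 and DESeq2 116 at an adjusted p under 0.05, against 0 in the main test and in the other settings. DESeq2 called 1 of the 10 genes, PLA2G4C. Of the 10, the number lower in both shKLF5 libraries was 4 in the main test, 2 with library size alone, 2 with a mean CPM of at least 5 (fewer genes tested), and 1 with limma on log2(TPM + 1) and on log2(TPM + 0.1). In a single shKLF5 library 4 to 6 of the 10 were higher and 4 to 6 lower. Among the other pathway genes, the 23 higher and 36 lower in both libraries became 37 and 17 with library size alone, 13 and 20 with a mean CPM of at least 5, and 38 and 17 with limma on log2(TPM + 1) and on log2(TPM + 0.1). With no filter 38 were higher in both, with more genes tested. In single libraries 27 to 31 were higher and 40 to 44 lower. Over all genes tested, 65.2% were higher in both and 12.5% lower with library size alone. With either limma setting these shares were 65.2% and 11.3%, against 37.9% and 36.5% in the main test. PLA2G4C, ALOXE3, PTGS1 and PTGS2 kept a positive and PTGES and PTGR1 a negative log2 fold change in every setting run, PLA2G4C from 2.61 to 3.78 and ALOXE3 from 0.81 to 3.22. PLA2G4A and ALOX12B changed sign in 4 settings each. ALOX15B stood at 6.01 with protein-coding transcripts alone, where scramble has 0 counts, so that value is no bound. At 5 to 20 counts per library, counting error alone limits ALOX12B, ALOX15B and PTGS1.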

Other observations

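The 10 genes together had a summed level of 179.0 TPM in scramble, 268.0 in library 1 and 318.0 in library 2. PTGS2 made up 19.3%, 42.1% and 27.7% of it, so the larger sum of library 1 lay mostly in PTGS2. Library 2 added PLA2G4C and ALOXE3 at 60.8 and 48.2 TPM. These sums carry no TMM scaling. On log2(TPM + 0.1), 65.2% of all genes tested were higher in both shKLF5 libraries and 11.3% lower. The median gene stood 0.431 above scramble on that scale. The part of this general shift in the larger sums was not tested.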
